A study of Mus musculus with 23 samples.

Results

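Potassium channel genes were taken as every protein-coding gene whose mouse symbol consists of Kcn, further letters and a closing number, after mapping of the Ensembl gene IDs to symbols. The rule gave 92 of the 45706 gene IDs of the count table, in 15 groups by symbol prefix, and 80 of them had enough reads to be tested. The 12 that did not were Kcna7, Kcna10, Kcne1, Kcnj1, Kcnj15, Kcnk7, Kcnk15, Kcnk16, Kcnk18, Kcnmb3, Kcnn4 and Kcnv2, none of which was above 0.210 CPM, reads of the gene per 1000000 gene reads after TMM scaling of the libraries, in any library. Another 7 annotated genes have a symbol that starts with Kcn but do not meet the rule.

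Potassium channels let potassium leave a neuron and so set its resting potential, the shape and length of its action potentials and how fast it can fire. The voltage-gated families (Kcna to Kcnd, Kcnh and Kcnq) open on depolarisation, the Kcnj inward rectifiers and the Kcnk leak channels act near rest, and the Kcnm, Kcnn and Kcnt channels are opened by calcium or sodium inside the cell. Accessory subunits of the Kcnab, Kcne and Kcnip families, and silent subunits that form no channel alone, change how the pore-forming subunits open and where they are placed. In the hippocampus, fast-firing interneurons are known for Kcnc channels, and pyramidal cells for Kcnd channels in their dendrites and for Kcnq channels that carry the M current.

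The 23 libraries of polyadenylated RNA came from mouse hippocampus and fall into 3 populations, titled CamK, Grik and SST, each from SLM2 WT and SLM2 cKO animals. The cell type label of CamK and Grik is pyramidal, excitatory neurons and that of SST is interneurons that express somatostatin, an inhibitory neuropeptide. The series names CA1, CA3 and SST populations. SLM2, an RNA-binding splicing regulator, is encoded by Khdrbs3, and cKO stands for its conditional knockout. There were 4 libraries in each group except CamK cKO, which had 3. How the cells were isolated, what drives the deletion, which exons it removes and the age of the animals are not given in the sources used here. What CamK and Grik abbreviate is not explained either, though a column header of the Grik cKO libraries begins with Grik4. The labels do not say that the replicates of a group are separate animals, so p-values measure the spread between these libraries, which may be technical.

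The promoters of 3 members that differed between populations are shown first. Transcripts of Kcna3 and Kcnc1 were higher in SST than in both excitatory populations, and that of Kcnh7 was highest in CamK. Each stretch is the 150 bases before the transcription start, 5′ to 3′ on the gene's strand, from RefSeq on the GRCm38.p6 build. It lies at chr3:107036012-107036161 on the plus strand for Kcna3, at chr7:46396318-46396467 on the plus strand for Kcnc1 and at chr2:63184288-63184437 on the minus strand for Kcnh7. Capitals mark GGGCGG, the GC box, or its reverse complement CCGCCC.
Kcna3: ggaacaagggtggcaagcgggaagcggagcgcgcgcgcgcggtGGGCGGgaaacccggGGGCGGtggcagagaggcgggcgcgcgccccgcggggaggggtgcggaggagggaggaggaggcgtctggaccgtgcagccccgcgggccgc
Kcnc1: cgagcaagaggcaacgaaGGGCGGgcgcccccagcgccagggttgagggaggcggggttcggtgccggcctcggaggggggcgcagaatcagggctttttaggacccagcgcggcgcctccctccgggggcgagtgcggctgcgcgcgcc
Kcnh7: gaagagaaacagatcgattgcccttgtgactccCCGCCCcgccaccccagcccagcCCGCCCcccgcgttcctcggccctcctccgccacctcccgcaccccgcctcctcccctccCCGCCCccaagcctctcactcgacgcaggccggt
Of the 92 members 67 had an entry in the RefSeq promoter table. Within 250 bases before the start, on either strand, 40 of these 67 genes (59.7%) held GGGCGG, against 35.4% of all 27025 genes in the table. Among the genes higher in SST than in both other WT groups 8 of 16 held it, and among those lower in SST than in both 16 of 21 did. The E-box CAGCTG was found in 16 of 67 members (23.9%), in 6 of those 16 and in 6 of those 21 genes, against 14.7% of all genes. The other E-box searched, CAGATG, was found in 17.9% of members and 16.3% of all genes, and TATAAA in 4.48% and 14.3%. TGACGTCA, the cyclic AMP response element, was in none of the members and in 1.77% of all genes. A match describes these letters in this window and nothing about binding.

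Gene reads per library ranged from 87612006 to 112993538, and 0.381 to 0.517% of them fell in the 92 members. The 5 excitatory markers (Slc17a7, Camk2a, Neurod2, Neurod6 and Tbr1) summed to 5472 to 5969 CPM for CamK WT, 6873 to 7910 for Grik WT and 767 to 894 for SST WT, and the 8 inhibitory markers to 46.9 to 146, 77.1 to 111 and 6738 to 7481. Sst itself varied within SST WT, at 1720, 159, 554 and 1557 CPM in replicates 1, 2, 3 and 5, and had 1010 to 2125 CPM in SST cKO. Without replicate 2, the lowest, 72 members were called between SST and CamK and 66 between SST and Grik, beside 71 and 66 with it. Pvalb, another of the inhibitory markers, had 114 to 172 CPM in SST WT, 0.745 to 1.31 in CamK WT and 0.698 to 1.54 in Grik WT. By the edgeR test of the WT libraries, 7 of the 8 inhibitory markers were higher and 1 lower in SST than in Grik. Vip was highest in Grik, at 6.79 to 17.1 CPM in Grik WT, 0.342 to 0.772 in SST WT and 0.136 to 0.454 in CamK WT. CA1 markers were higher in CamK (4 of 4 lower in Grik) and CA3 markers in Grik (4 of 4 higher), each by the edgeR test of the WT libraries. The 3 dentate granule cell markers summed to 97.9 to 259 CPM for CamK WT, 140 to 150 for Grik WT and 27.6 to 38.8 for SST WT. Oligodendrocyte markers, 5 of 5 detected, summed to 138 to 206 CPM for CamK WT, 638 to 855 for Grik WT and 256 to 566 for SST WT, and astrocyte markers, 5 of 5 detected, to 9.01 to 20.99, 50.9 to 60.9 and 53.5 to 105. The part of RNA from other cells in the differences below was not tested. In such bulk samples fewer cells of a type and less RNA per cell cannot be told apart. Total Khdrbs3 was 373 ± 27.0 CPM in CamK WT and 278 ± 25.1 in the CamK libraries labelled cKO, 335 ± 8.61 and 414 ± 18.0 in Grik, and 130.2 ± 8.31 and 93.8 ± 10.5 in SST (SD, n = 4, or 3 for CamK cKO). It passed the edgeR test only in SST (adjusted p 0.0309; 0.114 in CamK and 0.499 in Grik). In Grik its total was higher in the libraries labelled cKO, against the label, and the table has no counts per exon, so cKO names the label throughout. Its relatives Khdrbs2 and Khdrbs1 were higher in the libraries labelled cKO of both excitatory populations. Khdrbs2 went from 14.004 to 40.2 CPM in CamK and from 4.69 to 21.1 CPM in Grik, with log2 differences of 1.52 (SE 0.13, edgeR adjusted p 3.02e-07) and 2.17 (SE 0.13, edgeR adjusted p 1.11e-10). Those of Khdrbs1 were 0.59 (SE 0.091, edgeR adjusted p 0.0111) and 0.56 (SE 0.085, edgeR adjusted p 0.00914), and neither gene passed in SST (adjusted p 0.300 and 0.874).

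Most potassium channel genes differed between the 3 WT populations. Tested with edgeR's quasi-likelihood method across all 18823 genes, with Benjamini-Hochberg adjustment and a threshold of 0.05, 58 of 80 members differed between Grik and CamK, 26 of them higher in Grik and 32 lower. Over all genes tested 42% passed, 21.1% higher and 20.9% lower. Between SST and CamK 71 of 80 passed, 29 higher in SST and 42 lower, against 60.1% of all genes (30.5% higher and 29.5% lower). Between SST and Grik 66 passed, 33 in each direction, against 57.3% of all genes (29.2% higher and 28.1% lower). The median size of the log2 difference over the 80 members was 0.86, 1.57 and 1.35 in the 3 comparisons, beside 0.34, 0.54 and 0.51 over all genes. Because the 3 comparisons share libraries in pairs, they are not independent of each other.

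By the 3 tests together, 22 members were higher in SST than in both excitatory populations and 31 were lower in SST than in both. The same classes held 21 and 20.4% of all genes tested. Among the rest, each counted once, CamK was above both other populations for 10 members (among them Kcnab1, Kcnc4, Kcnh7, Kcnj5, Kcnj9, Kcnk2, Kcnk9, Kcnk12 and Kcnn3), against 6.56% of all genes, and below both for 3 (Kcng3, Kcnj16 and Kcnmb1), against 4.96%. Kcnmb1 was read 0, 0, 1 and 0 times in CamK WT and 3, 7, 6 and 0 times in Grik WT. In SST WT it had 12, 5, 10 and 16 reads, so it reached the test mainly through SST and its class rests on few reads. Grik was above both for 2, Kcna1 and Kcnj10, against 5.9%, and below both for 4 (Kcna5, Kcnh4, Kcnj11 and Kcnj12), against 4.27%. The call of Kcnj10 between SST and Grik was lost without SST WT replicate 1 (edgeR adjusted p 0.0512), and that of Kcnh4 without Grik WT replicate 3 (0.0781) or 6 (0.0766). A further 4 (Kcne2, Kcnk5, Kcnk6 and Kcnq1) passed in a single comparison, against 12.5% of all genes, and Kcnb2, Kcnh5, Kcnj13 and Kcnk1 passed in none, beside 24.4% of all genes that passed in none. The call of Kcne2, higher in SST than in CamK, was lost with no filter (adjusted p 0.0538), with limma-voom (0.0933), with the replicate block (0.115), and without CamK WT replicate 3, 4 or 5 or SST WT replicate 3 (0.0583 to 0.0975). Among the genes higher in SST were also Kcnd1, Kcne4, Kcnh6, Kcnh8, Kcnj8 and Kcnu1, and among those lower Kcnj14, Kcnk10 and Kcns1. Kcne4 was read 6, 0, 2 and 1 times in CamK WT and 0, 4, 5 and 6 times in Grik WT. In SST WT it had 29, 25, 49 and 44 reads, so it reached the test mainly through SST. Kcnh8 had 3, 13, 10 and 13 reads in CamK WT, 2, 5, 8 and 16 in Grik WT and 34, 58, 32 and 42 in SST WT. Kcnj8 had 14, 0, 0 and 0, then 10, 7, 7 and 8, then 79, 52, 45 and 44 reads in the same order. The calls of Kcnh8 and Kcnj8 thus also rest on few reads outside SST. With a filter of 1 CPM in 3 libraries, 62 of the 71 calls between SST and CamK could be tested. Between SST and Grik it was 61 of 66, and all that were tested passed. Members of 1 subfamily often stood on opposite sides: the Kcna, Kcnab, Kcnc, Kcnd, Kcne, Kcnh, Kcnip, Kcnj, Kcnk, Kcnm, Kcnq, Kcnt/Kcnu and silent-subunit groups each held at least 1 gene higher in SST than in both others and at least 1 gene lower than in both. For Kcne the higher gene was Kcne4 and for Kcnj it was Kcnj8, each with few reads outside SST.

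**Figure D1:**
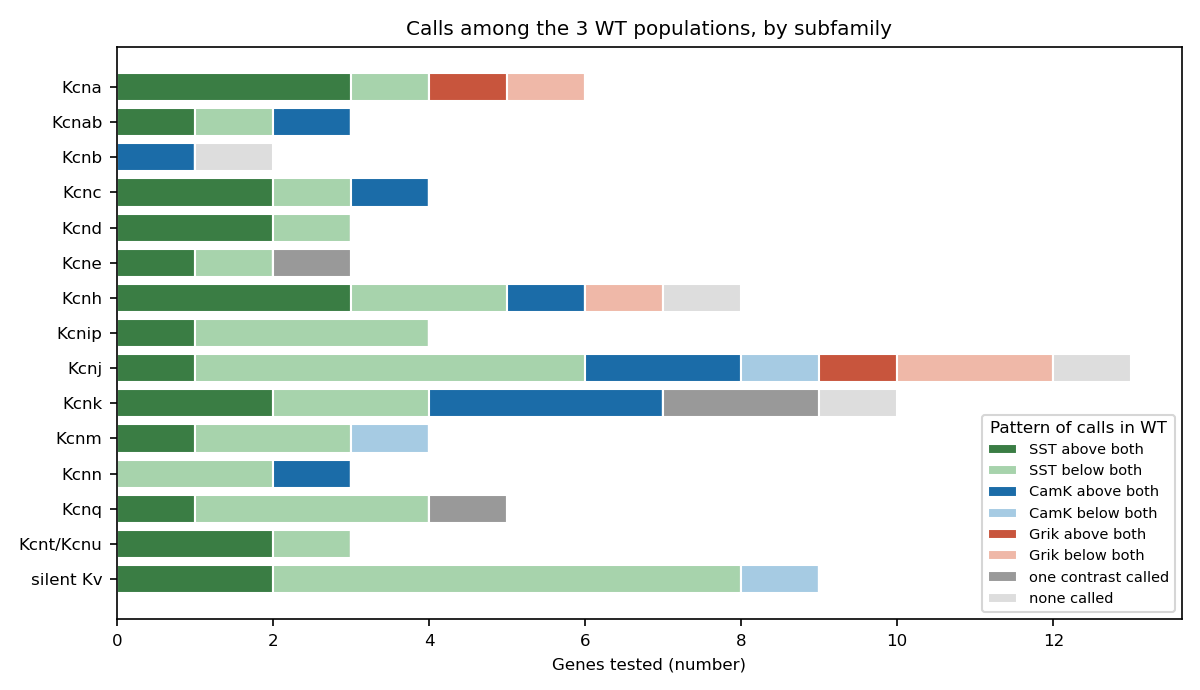
Number of tested members of each subfamily by their pattern over the WT libraries, from the edgeR tests of the 3 population pairs (adjusted p at most 0.05); each stacked bar is a subfamily and each colour a pattern, with each gene counted once and the SST patterns first. The 22 genes above and the 31 genes below both excitatory populations in SST are spread over most subfamilies.

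The Kcna genes encode the Shaker-type subunits of axons and terminals, which delay firing and limit transmitter release. On the scale of CPM per kb of merged exons, which allows levels of different genes to be compared, their summed level was 60.02 ± 4.16 for CamK WT, 108 ± 6.07 for Grik WT and 119 ± 7.98 for SST WT (SD, n = 4). Kcna1 and Kcna2, the main axonal subunits, made up 53.2 and 20.9% of that sum in CamK, 68.7 and 15.6% in Grik and 34.1 and 23.1% in SST. In SST, Kcna6 supplied 26.1% and Kcna3 14.9%, where Kcna3 was 1.74% in CamK and 0.789% in Grik.

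The SST WT libraries held 32.0, 28.6, 36.5 and 37.5 CPM of Kcna3, the CamK WT libraries 1.99, 2.84, 1.52 and 1.67 and the Grik WT libraries 1.57, 1.89, 1.83 and 1.20. Every SST library was above every excitatory library, and CamK and Grik overlapped. The log2 difference was 4.07 (SE 0.20, edgeR adjusted p 1.5e-14) against CamK and 4.37 (SE 0.20, edgeR adjusted p 4.65e-15) against Grik. Kcna3 encodes a delayed-rectifier subunit best known from lymphocytes and also made by neurons. The 4 microglial markers summed to 1.34 to 3.35 CPM for CamK WT, 3.13 to 14.3 for Grik WT and 5.66 to 7.13 for SST WT, and the part of immune cells in the difference was not tested. Kcna6 had means of 32.7, 49.6 and 185 CPM and was higher in SST than in CamK by 2.50 and than in Grik by 1.90 on the log2 scale.

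For Kcna1 the CPM were 169, 157, 139 and 147 across CamK WT, 376, 351, 364 and 324 across Grik WT and 180.3, 233, 185 and 183 across SST WT. Grik exceeded every other library, by a log2 difference of 1.21 (SE 0.079, edgeR adjusted p 8.72e-12) from CamK, and SST lay -0.86 (SE 0.078, edgeR adjusted p 8.46e-10) from Grik. Oligodendrocyte markers were also highest in Grik WT (638 to 855 CPM against 138 to 206 in CamK), and their part in this was not tested. Across SST WT Kcna2 had 276, 334, 381 and 326 CPM, set against 158, 159.9, 131 and 147 across CamK WT and 207, 196, 207 and 189 across Grik WT. The 3 groups did not overlap, with SST highest: SST was above CamK by 1.14 and Grik above CamK by 0.42 on the log2 scale. Kcna4, a fast-inactivating subunit of axons, went the other way, with 5.67, 7.79, 7.38 and 9.75 CPM in SST WT, 39.3, 39.1, 44.9 and 38.3 in CamK WT and 42.4, 43.9, 31.7 and 27.7 in Grik WT, a log2 difference of -2.40 (SE 0.20, edgeR adjusted p 1.22e-09) between SST and CamK. Kcna5 was low everywhere and lower in Grik, at 0.183, 0.243, 0.320 and 0.469 CPM, than in CamK (1.67, 1.85, 1.61 and 1.95 CPM), a log2 difference of -2.54 (SE 0.25, edgeR adjusted p 8.47e-09), while CamK and SST overlapped.

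The cytoplasmic Kcnab subunits bind Kcna channels and speed their inactivation or carry them to the membrane. Kcnab2 had the highest level per length of all members in each WT population, with 217 ± 19.2, 205 ± 17.9 and 88.5 ± 8.61 CPM per kb in CamK, Grik and SST (SD, n = 4). In CPM it stood at 1135, 1106, 1325 and 1281 for CamK WT, 1019, 1104, 1212 and 1233 for Grik WT and 499.5, 541, 508 and 427 for SST WT. SST lay below both, with a log2 difference of -1.29 (SE 0.082, edgeR adjusted p 9.96e-13) from CamK, while CamK and Grik overlapped. Kcnab3 was at 46.2, 39.5, 48.9 and 44.8 CPM in the CamK WT libraries, 7.42, 8.79, 8.16 and 8.87 in those of Grik WT and 109.8, 127, 120.2 and 70.3 in those of SST WT. The groups did not overlap, and the log2 difference of SST from Grik was 3.68 (SE 0.14, edgeR adjusted p 1.98e-16) and that of Grik from CamK -2.43 (SE 0.14, edgeR adjusted p 1.21e-12). Kcnab1 was highest in CamK, with 377, 351, 434 and 378 CPM against 143 to 192 CPM in the other WT libraries. Of the Kcnab sum per length, Kcnab3 was 5.64% for CamK, 1.27% for Grik and 25.6% for SST.

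**Figure D2:**
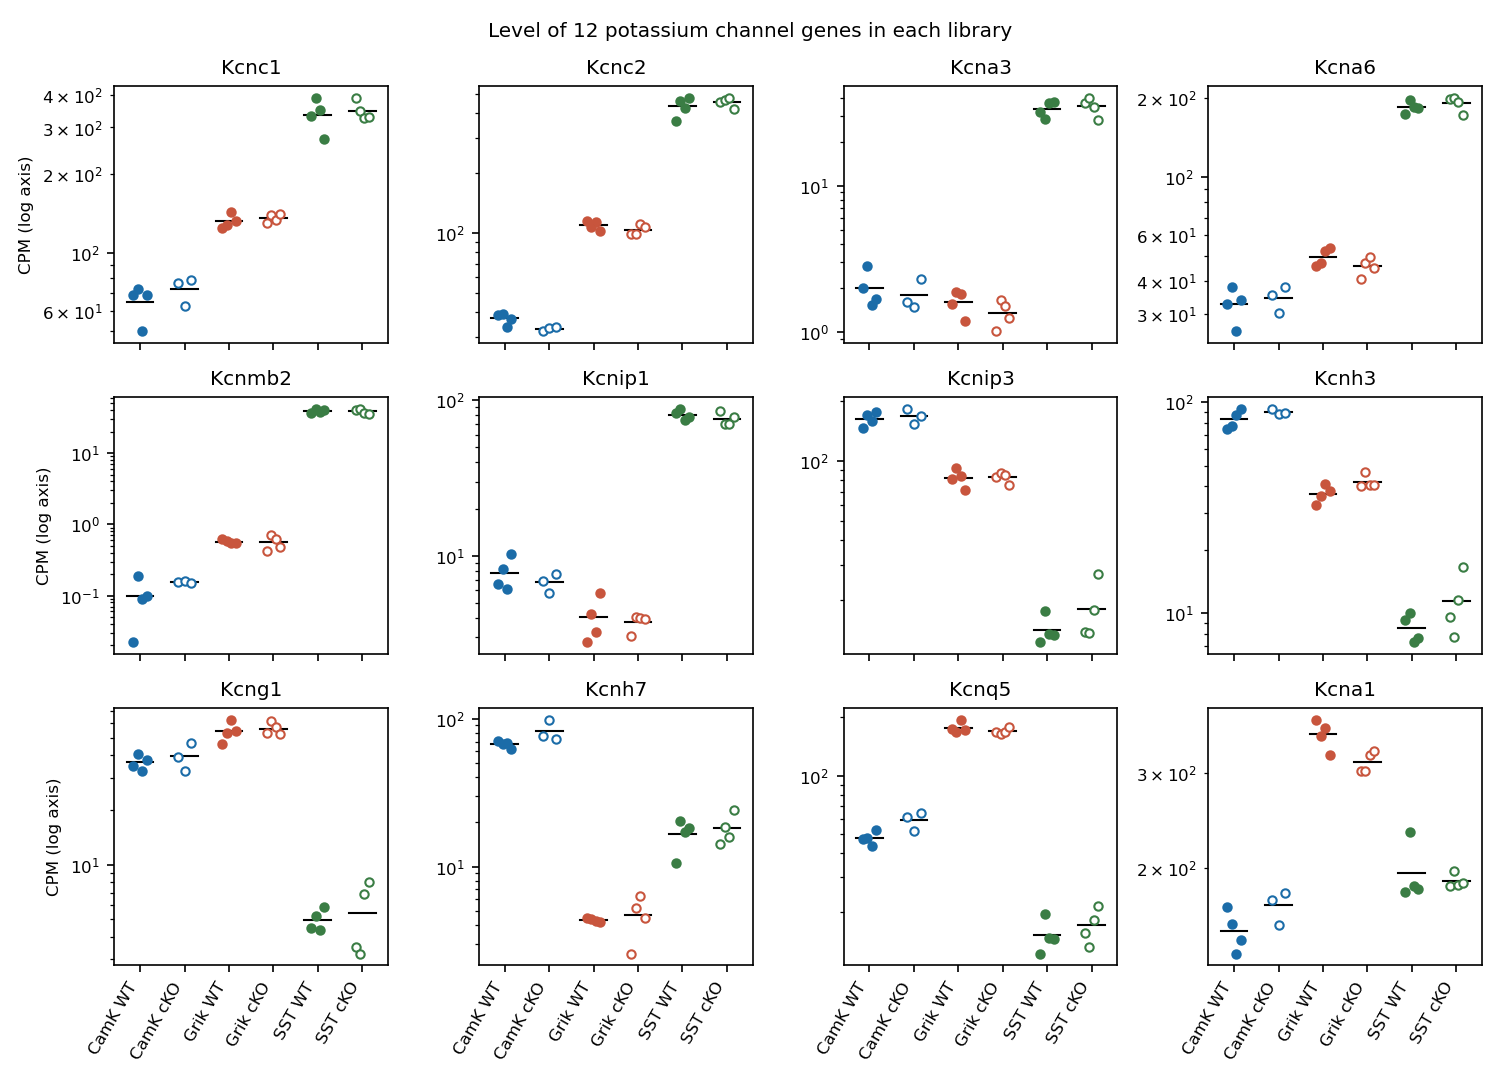
CPM on a log axis of 12 members in each of the 23 libraries, grouped by population and genotype; filled points are WT libraries, open points libraries labelled cKO, and each line is a group mean. Kcna3, Kcnc2, Kcnmb2 and Kcnip1 are highest in SST, Kcnh7 in CamK and Kcnq5 in Grik, with the WT and cKO points of a population beside each other.

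Kcnc genes encode the Shaw-type channels that switch off action potentials quickly and permit fast trains of spikes. Their summed level per length was 55.1 ± 3.87 CPM per kb for CamK WT, 60.05 ± 4.45 for Grik WT and 123 ± 9.37 for SST WT, and the make-up differed as well. The SST WT libraries held 367, 465, 428 and 476 CPM of Kcnc2, the CamK WT libraries 38.9, 39.3, 33.9 and 37.0 and the Grik WT libraries 115, 107, 113 and 102. The groups did not overlap, and SST was above CamK by 3.54 (SE 0.081, edgeR adjusted p 3.77e-20) and above Grik by 1.99 (SE 0.076, edgeR adjusted p 5.9e-17) on the log2 scale. For Kcnc1 the CPM were 68.6, 72.5, 50.1 and 69.0 across CamK WT, 124, 128, 143 and 131 across Grik WT and 331, 387, 349 and 270.1 across SST WT. It was ordered in the same way, with log2 differences of 1.02 (SE 0.11, edgeR adjusted p 2.99e-08) from CamK to Grik and 1.35 (SE 0.11, edgeR adjusted p 5.87e-11) from Grik to SST. Kcnc2 and Kcnc1 made up 49.4 and 28.7% of the sum in SST. In CamK, Kcnc4 made up 42.7%. Kcnc4 means were 86.3 ± 8.54 CPM for CamK, 26.2 ± 4.95 for Grik and 39.0 ± 4.40 for SST.

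Kcnd genes encode the A-type subunits of dendrites, and the calcium-binding Kcnip proteins join them and set their surface level and inactivation. Across SST WT Kcnd2 had 36.1, 54.0, 44.9 and 59.4 CPM, set against 161, 139.8, 168 and 156 across CamK WT and 94.8, 83.3, 95.8 and 105 across Grik WT. CamK was highest, and the log2 difference from it was -1.69 (SE 0.12, edgeR adjusted p 9.9e-12) for SST and -0.72 (SE 0.12, edgeR adjusted p 2.06e-05) for Grik. Kcnd3 was at 59.97, 60.8, 43.4 and 53.6 CPM in the CamK WT libraries, 93.9, 91.2, 97.2 and 93.2 in those of Grik WT and 103, 126, 126 and 137 in those of SST WT. Its order was the reverse, with SST above CamK by 1.18 (SE 0.088, edgeR adjusted p 2.25e-11), and the WT groups of neither gene overlapped. Kcnd2 was 81.1% of the Kcnd level per length for CamK, 62.7% for Grik and 37.7% for SST, and Kcnd3 15.3, 33.5 and 51.9%.

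The Kcnip sum per length was 137 ± 6.29 CPM per kb for CamK WT, 122 ± 1.86 for Grik WT and 36.0 ± 1.89 for SST WT. Kcnip2, Kcnip3 and Kcnip4 were each lower in SST than in both excitatory populations, and Kcnip1 was higher. The SST WT libraries held 83.3, 88.0, 74.3 and 77.6 CPM of Kcnip1, the CamK WT libraries 6.58, 8.16, 6.08 and 10.2 and the Grik WT libraries 2.77, 4.23, 3.25 and 5.78. SST was above CamK by 3.38 (SE 0.18, edgeR adjusted p 2.82e-13) and above Grik by 4.33 (SE 0.19, edgeR adjusted p 7.67e-15) on the log2 scale. For Kcnip3 the CPM were 145, 169.7, 158 and 175 across CamK WT, 81.5, 92.1, 84.2 and 71.4 across Grik WT and 12.3, 17.6, 13.5 and 13.4 across SST WT. The log2 difference of SST from CamK was -3.51 (SE 0.17, edgeR adjusted p 4.8e-14), and all 3 groups were apart. Across SST WT Kcnip4 had 11.8, 15.6, 18.1 and 15.8 CPM, set against 113, 108, 124 and 115 across CamK WT and 75.1, 63.5, 59.96 and 68.9 across Grik WT. The order was the same, with a log2 difference of SST from CamK of -2.90 (SE 0.13, edgeR adjusted p 1.33e-15). Kcnip2 was highest in Grik, at 269, 278, 275 and 279 CPM, with 204, 210.3, 185 and 218 in CamK WT and 50.1, 44.8, 47.9 and 62.1 in SST WT. Kcnip1 was 36.3% of the Kcnip level per length in SST, 0.906% in CamK and 0.532% in Grik. The excitatory markers summed to 767 to 894 CPM in SST WT; the part of such RNA in the reads of genes that were low in SST was not tested.

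**Figure D3:**
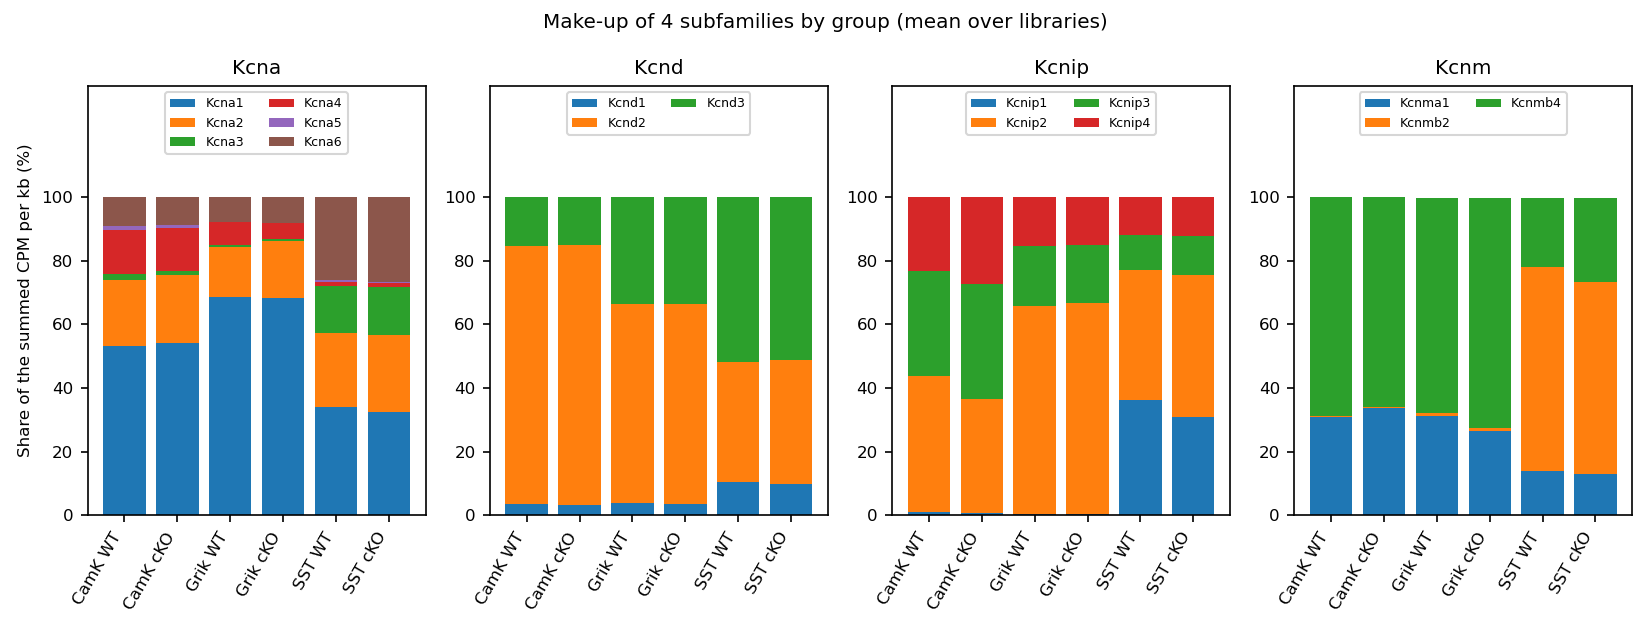
Share of each member in the summed CPM per kb of its subfamily (percent, mean over the libraries of a group) for Kcna, Kcnd, Kcnip and Kcnm in the 6 groups; bars are groups and colours are genes, and members under 1% in every group are left out. Kcnip1, for example, takes 36.3% of the Kcnip bar in SST WT against 0.906% in CamK WT.

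Kcnb genes encode the delayed rectifiers of the soma. Kcnb2 ranged from 18.8 to 31.3 CPM over all WT libraries without passing any of the 3 tests. The silent subunits of the Kcnf, Kcng, Kcns and Kcnv groups join Kcnb channels and change their gating. Of the 9 tested, 6 were lower and 2 higher in SST than in Grik, and 6 lower and 3 higher than in CamK, where 28.1 and 29.2% of all genes were lower and higher against Grik and 29.5 and 30.5% against CamK. Kcns3 was at 6.12, 6.80, 8.33 and 8.22 CPM in the CamK WT libraries, 2.56, 2.79, 2.94 and 3.53 in those of Grik WT and 51.3, 52.4, 44.01 and 43.4 in those of SST WT. It was the main silent subunit of SST (43.9% of their level per length, against 4.08% in CamK), with a log2 difference from Grik of 4.01 (SE 0.14, edgeR adjusted p 1.23e-17). Kcng4 had the same direction at a lower level, with 5.82, 10.6, 7.11 and 9.61 CPM in SST WT and 0.388 to 1.03 CPM in the excitatory WT libraries, a log2 difference from CamK of 3.94 (SE 0.23, edgeR adjusted p 2.54e-13).

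The silent subunits Kcng1, Kcng2 and Kcnv1 were low in SST and highest in Grik. The SST WT libraries held 4.71, 7.31, 6.16 and 5.74 CPM of Kcnv1, the CamK WT libraries 28.0, 28.0, 29.2 and 28.9 and the Grik WT libraries 73.2, 60.9, 63.5 and 62.6. The groups did not overlap, and SST lay -3.44 (SE 0.16, edgeR adjusted p 4.69e-15) from Grik on the log2 scale. Kcng1 had 4.45, 5.19, 4.38 and 5.87 CPM in SST WT, 34.8, 40.7, 32.9 and 37.7 in CamK WT and 46.1, 53.2, 62.5 and 54.7 in Grik WT. Its groups did not overlap, but the call of Grik over CamK (log2 difference 0.57 (SE 0.20, edgeR adjusted p 0.0276)) was lost with no filter on low counts (adjusted p 0.0567) and without CamK WT replicate 2 (0.0516), CamK WT replicate 4 (0.0638) or Grik WT replicate 5 (0.0722). Kcng2 had means of 3.40 ± 0.744 CPM in SST, 16.3 ± 2.19 in CamK and 25.8 ± 3.83 in Grik. The log2 differences of Kcng1 and Kcng2 between SST and Grik were -3.45 and -2.92. Kcnf1, the silent subunit with the highest level per length in CamK, had 33.4, 33.7, 30.4 and 54.6 CPM in SST WT and 74.5 to 109.6 CPM in the excitatory WT libraries. Kcns2 was lower in SST as well, with a log2 difference of -0.95 from CamK.

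The Kcnh genes encode the ether-à-go-go, erg and elk channels, which act near the firing threshold. Kcnh7, an erg subunit (ENSMUSG00000059742, chr2:62693414-63184287, minus strand in GENCODE M21; an exon of Gca overlaps it on the other strand), separated the excitatory populations most. For Kcnh7 the CPM were 70.5, 67.6, 68.4 and 61.9 across CamK WT, 4.51, 4.45, 4.30 and 4.22 across Grik WT and 10.5, 20.4, 17.0 and 18.3 across SST WT. The groups did not overlap, and the log2 difference from CamK was -3.94 (SE 0.24, edgeR adjusted p 3.19e-11) for Grik and -2.02 (SE 0.22, edgeR adjusted p 6.21e-08) for SST. Kcnh2, the other main erg subunit, was higher in SST, with 60.6 ± 5.83 CPM against 8.27 ± 0.901 in CamK and 10.9 ± 1.92 in Grik. It was 61.2% of the Kcnh level per length in SST and 6.18% in CamK. Across SST WT Kcnh3 had 9.31, 10.04, 7.29 and 7.63 CPM, set against 75.0, 77.1, 87.1 and 92.7 across CamK WT and 32.7, 36.0, 41.0 and 37.9 across Grik WT. This elk gene was the leading Kcnh member of CamK (52.2% of the level per length), and SST lay -3.27 (SE 0.17, edgeR adjusted p 4.92e-14) from CamK. Kcnh1, the ether-à-go-go subunit, was highest in Grik (57.8, 61.6, 74.0 and 70.3 CPM) and lowest in SST (13.2, 17.3, 14.7 and 18.8 CPM), with CamK between them at 37.6, 36.7, 26.6 and 32.7 CPM. Kcnh5 stayed within 5.46 to 8.09 CPM over all WT libraries and passed no test.

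Kcnq3 and Kcnq5 encode subunits of the M current, a slow current that limits repetitive firing. The Kcnq sum per length was 47.6 ± 1.82 CPM per kb for CamK WT, 79.3 ± 6.83 for Grik WT and 31.2 ± 2.04 for SST WT. Kcnq5 was at 47.5, 48.0, 43.4 and 52.6 CPM in the CamK WT libraries, 174, 167, 194 and 173 in those of Grik WT and 12.2, 19.5, 14.6 and 14.5 in those of SST WT. The groups were apart, with Grik above CamK by 1.89 (SE 0.13, edgeR adjusted p 1.93e-11) on the log2 scale and a difference of SST from Grik of -3.54 (SE 0.14, edgeR adjusted p 1.2e-16). Kcnq3 was lower in SST (130.0, 142, 159.7 and 142 CPM) than in CamK (266, 248, 255 and 239 CPM), a log2 difference of -0.81, and CamK and Grik overlapped. The Kcne subunits, which modify Kcnq and Kcnh channels, were scarce: Kcne3 stayed at or below 1.04 CPM in every WT library, with 0.891, 0.565, 0.836 and 1.04 CPM in CamK WT against 0.0213 to 0.111 in SST WT, and Kcne2 reached at most 1.28 CPM.

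Inward rectifiers of the Kcnj family hold the resting potential, and Kcnj3, Kcnj5, Kcnj6 and Kcnj9 encode the subunits opened by G proteins. The family sum per length was 101.5 ± 6.26 CPM per kb for CamK WT, 53.7 ± 2.41 for Grik WT and 38.7 ± 3.17 for SST WT. Of 13 tested members 7 were lower and 3 higher in SST than in CamK, and again 7 lower and 3 higher in Grik than in CamK. Of all genes, 29.5% were lower and 30.5% higher in the first of these comparisons, and 20.9% lower and 21.1% higher in the second. The SST WT libraries held 38.4, 39.3, 39.7 and 33.8 CPM of Kcnj9, the CamK WT libraries 100.5, 109, 101.4 and 122 and the Grik WT libraries 25.2, 28.2, 33.4 and 24.3. CamK was apart from both, with a log2 difference of -1.96 (SE 0.13, edgeR adjusted p 2.22e-11) for Grik and -1.52 (SE 0.13, edgeR adjusted p 3.92e-10) for SST. Kcnj3 was lower in SST (52.0, 72.9, 61.0 and 79.8 CPM) than in CamK (169, 155, 173 and 169 CPM) and Grik (132, 110.1, 119 and 112 CPM), and so was Kcnj6, with means of 11.2 ± 1.29 CPM in SST, 38.4 ± 3.003 in CamK and 45.9 ± 2.98 in Grik.

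Kcnj2 and Kcnj4, strong inward rectifiers, were both highest in CamK and lowest in SST. For Kcnj4 the CPM were 55.1, 58.3, 70.5 and 72.1 across CamK WT, 20.5, 23.8, 25.6 and 23.9 across Grik WT and 10.1, 13.9, 12.8 and 17.4 across SST WT. Across SST WT Kcnj2 had 0.891, 1.12, 0.975 and 0.675 CPM, set against 5.27, 9.52, 5.70 and 11.7 across CamK WT and 4.04, 3.30, 2.29 and 3.32 across Grik WT. Their log2 differences between SST and CamK were -2.24 (SE 0.16, edgeR adjusted p 2.44e-11) and -3.14 (SE 0.33, edgeR adjusted p 2.7e-08). Kcnj11, the pore of the neuronal ATP-sensitive channel, was lower in Grik (8.90 ± 1.52 CPM) than in CamK (15.1 ± 0.179) and SST (15.7 ± 2.90). Kcnj10, the rectifier of astrocytes and oligodendrocytes, was highest in Grik: 2.98, 2.53, 1.60 and 2.09 CPM for CamK WT, 12.1, 17.4, 13.6 and 17.7 for Grik WT and 5.41, 11.1, 6.997 and 7.55 for SST WT. Its log2 difference between Grik and CamK was 2.72 (SE 0.35, edgeR adjusted p 2.56e-06), in the libraries where summed oligodendrocyte markers were 638 to 855 CPM in Grik and 138 to 206 in CamK, and their part in it was not tested. Kcnj16, another glial rectifier, stood at means of 0.244, 0.838 and 0.754 CPM in CamK, Grik and SST.

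The Kcnk genes encode tandem-pore leak channels. Kcnk1 had the highest level per length among them and did not pass any WT comparison, with 38.4 to 56.6 CPM over the WT libraries. Kcnk4, a channel opened by stretch and lipids, had a lower level in SST than in both other populations. Kcnk4 was at 7.26, 8.21, 8.09 and 10.1 CPM in the CamK WT libraries, 15.5, 18.4, 21.3 and 19.0 in those of Grik WT and 1.68, 1.68, 1.80 and 1.61 in those of SST WT. The groups were apart, by -3.46 (SE 0.14, edgeR adjusted p 3.32e-16) between SST and Grik on the log2 scale, and an exon of Catsperz overlaps this gene on the same strand. Kcnk2, a related channel, was highest in CamK at 34.2, 38.4, 45.3 and 46.8 CPM, with 12.7, 14.9, 14.3 and 14.2 in Grik WT and 9.73, 12.8, 11.5 and 12.8 in SST WT. Kcnk3, an acid-sensitive channel, was higher in SST (20.6 ± 1.67 CPM) than in CamK (6.18 ± 0.524) and Grik (1.91 ± 0.448), while its relative Kcnk9 was highest in CamK (5.56, 6.26, 5.33 and 4.80 CPM against 2.22 to 3.85 in the other WT libraries). Kcnk13 was low, and from CamK to Grik to SST it had 0.594, 0.797, 0.226 and 0.536, then 0.801, 1.49, 1.16 and 1.75, then 4.08, 4.24, 3.95 and 3.41 CPM.

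The channels opened by calcium gave the largest difference of the set. Kcnmb2 encodes an inactivating accessory subunit of the large-conductance (BK) channel, whose pore is Kcnma1. It was read 2, 17, 8 and 9 times in the 4 CamK WT libraries, and in CPM it stood at 0.0220, 0.188, 0.0903 and 0.0984 for CamK WT, 0.618, 0.591, 0.538 and 0.539 for Grik WT and 36.8, 41.8, 38.4 and 39.7 for SST WT. The fitted log2 differences were 8.60 (SE 0.22, edgeR adjusted p 1.39e-19) between SST and CamK and 6.09 (SE 0.18, edgeR adjusted p 8.12e-19) between SST and Grik, and the size of the first depends on the few reads in CamK. Kcnmb4, the brain-enriched subunit that slows the channel, was lower in SST (13.9, 11.9, 13.98 and 17.1 CPM) than in CamK (29.4, 26.3, 24.8 and 32.3) and Grik (34.3, 38.1, 41.1 and 40.7). The SST WT libraries held 38.6, 51.4, 51.9 and 43.8 CPM of Kcnma1, the CamK WT libraries 74.8, 69.6, 57.1 and 56.1 and the Grik WT libraries 93.9, 91.3, 98.7 and 77.0. The pore gene was lower in SST than in CamK, with a log2 difference of -0.47 (SE 0.10, edgeR adjusted p 3.22e-04). Kcnmb2 was 64.0% of the Kcnm level per length in SST and 21.9% was Kcnmb4, whereas Kcnmb4 was 68.9% in CamK and 67.8% in Grik.

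Small-conductance channels of the Kcnn family follow bursts of spikes with a hyperpolarisation. Kcnn2 was highest in CamK and lowest in SST: from CamK to Grik to SST it had 31.0, 27.0, 36.5 and 30.8 CPM, then 19.9, 21.8, 23.5 and 18.0, then 8.41, 9.75, 9.04 and 7.61, and SST lay -1.85 (SE 0.12, edgeR adjusted p 2.87e-12) from CamK on the log2 scale. Kcnn1 was lower in SST (11.5, 10.001, 9.62 and 7.48 CPM) than in the excitatory WT libraries (12.4 to 17.6 CPM). Of the sodium-activated channels, Kcnt1 was low in Grik: 14.5, 16.04, 10.5 and 15.5 CPM for CamK WT, 2.66, 2.87, 3.62 and 3.29 for Grik WT and 19.0, 18.5, 20.3 and 17.2 for SST WT. The log2 difference of Grik from CamK was -2.18 (SE 0.15, edgeR adjusted p 1.39e-11) and that of SST from Grik 2.59 (SE 0.15, edgeR adjusted p 1.15e-13). Kcnt2 showed the opposite order, with 20.1, 18.9, 19.2 and 16.9 CPM in Grik WT, 10.1, 10.5, 8.36 and 8.53 in CamK WT and 6.04, 6.76, 6.02 and 6.76 in SST WT.

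The same population comparisons in the libraries labelled cKO, which share no library with the WT comparisons, gave 56 called members between Grik and CamK (22 higher in Grik and 34 lower, against 35.7% of all genes, 18.3% higher and 17.4% lower), 72 between SST and CamK (29 and 43, against 56.4%, 29.4% and 26.9%) and 67 between SST and Grik (34 and 33, against 57.9%, 30% and 27.9%). Of the 58 members called between Grik and CamK in WT, 52 were called in the same direction in cKO, as were 68 of 71 between SST and CamK and 65 of 66 between SST and Grik. Of all genes called in WT, 69.1, 81.5 and 88.3% were called in the same direction in cKO. No member was called in the opposite direction, and all of these WT calls had the same sign in cKO, as did 97.5, 98.2 and 99.3% of the calls over all genes. The call lost between SST and Grik was that of Kcnj4, with a log2 difference of -0.79 in WT and -0.15 in cKO (edgeR adjusted p 0.410). Those lost between SST and CamK were of Kcna1 (0.35 in WT and 0.15 in cKO, edgeR adjusted p 0.135), Kcnj5 and Kcnk6. Kcnmb2 stood at 0.156, 0.158 and 0.152 CPM in CamK cKO, 0.421, 0.717, 0.622 and 0.484 in Grik cKO and 40.5, 41.1, 37.1 and 35.0 in SST cKO. Kcna3 had 1.62, 1.49 and 2.31, then 1.02, 1.66, 1.51 and 1.24, then 37.0, 40.0, 34.7 and 28.1 CPM in the same order of groups, so that SST was again apart. Kcnh7 had 75.8, 97.8 and 72.3 CPM in CamK cKO, 2.58, 5.24, 6.37 and 4.49 in Grik cKO and 14.2, 18.5, 15.8 and 24.2 in SST cKO, with a log2 difference between Grik and CamK of -4.13 (SE 0.25, edgeR adjusted p 3.11e-11). Kcnq5 kept its order, with 169, 164, 169 and 179 CPM in Grik cKO, 61.2, 51.8 and 64.4 in CamK cKO and 15.5, 13.1, 18.1 and 21.4 in SST cKO.

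**Figure D4:**
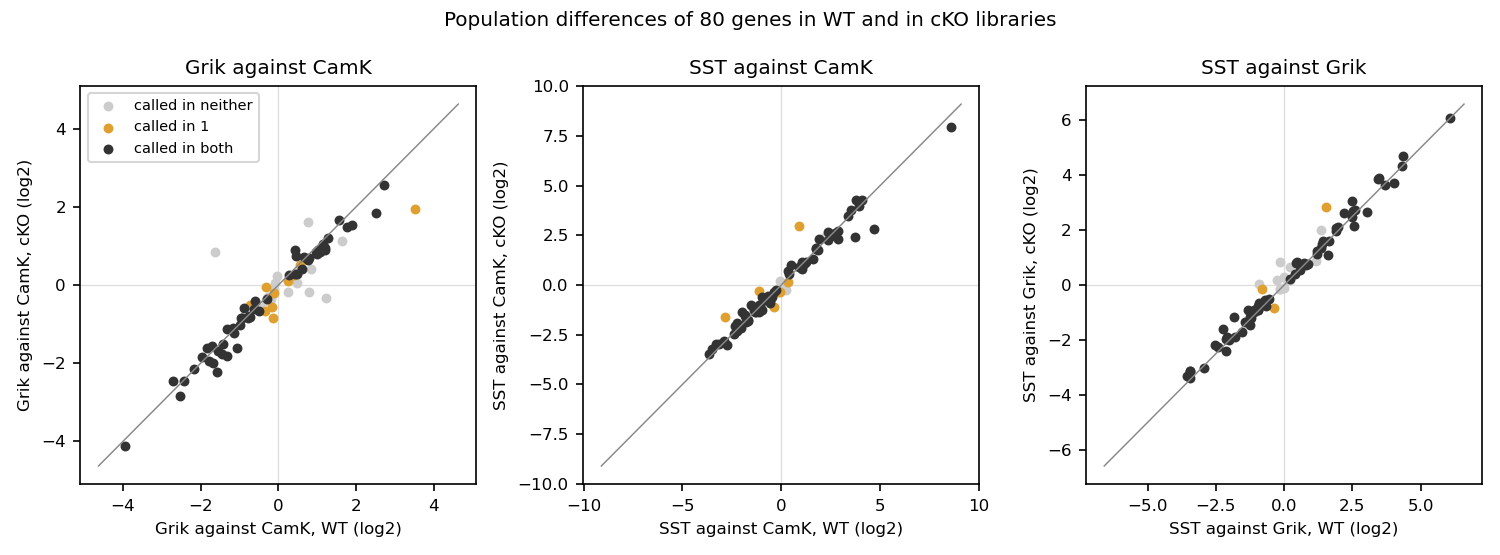
Log2 difference between 2 populations in the libraries labelled cKO (vertical axis) against that in the WT libraries (horizontal axis) for the 80 tested members, with a panel for each pair of populations; each point is a gene, dark where called in both, orange where called in 1 and grey where called in neither. The points lie along the diagonal in all 3 panels, and Kcnmb2 is at the far right, at 8.60 in WT and 7.94 in cKO for SST against CamK.

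The genotype comparison asks whether channel transcripts changed in total level where SLM2 was targeted. No member passed the edgeR threshold in CamK, Grik or SST, where 0.0106% of all genes passed in each population, and DESeq2 and limma-voom also called none. At an unadjusted p of at most 0.05 there were 7 members in CamK (4 higher in cKO and 3 lower), 5 in Grik (1 and 4) and 11 in SST (all higher). Over all genes these shares were 7.05% in CamK (3.61% higher and 3.44% lower), 4.88% in Grik (2.51% and 2.37%) and 5.85% in SST (3.36% higher and 2.49% lower). The median log2 difference of the 80 members was 0.10 in CamK, 0.02 in Grik and 0.09 in SST, beside medians of at most 0.02 over all genes. When 1 library was left out it ran from 0.08 to 0.12 in CamK and from 0.06 to 0.13 in SST, while in Grik it ran from -0.0019 (without Grik WT replicate 3) to 0.05 (without Grik cKO replicate 1), so its sign there was not stable.

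In SST, Kcnj9 (SST WT 38.4, 39.3, 39.7 and 33.8 CPM, SST cKO 48.6, 40.1, 53.8 and 69.8 CPM) had the lowest p, with a log2 difference of 0.49 (SE 0.13, unadjusted p 8.48e-04, edgeR adjusted p 0.833), and its groups did not overlap. Kcnj4 had 10.1, 13.9, 12.8 and 17.4 CPM in SST WT and 14.95, 18.5, 20.03 and 25.7 in SST cKO, a difference of 0.55 (SE 0.15, unadjusted p 0.00182, edgeR adjusted p 0.833), and its groups overlapped. Kcnk2 had 9.73, 12.8, 11.5 and 12.8 CPM in SST WT and 13.5, 12.3, 14.1 and 18.7 in SST cKO, a difference of 0.32 (SE 0.12, unadjusted p 0.0117, edgeR adjusted p 0.833), and its groups overlapped too. The highest value of each of these genes was in SST cKO replicate 7. Of the 31 members lower in SST than in both excitatory populations 7 were among the 11, and of the 22 higher in SST than in both 1 was. Over all genes, 6.99% of the first class and 1.24% of the second were higher in SST cKO at this p. The classes were set with the same SST WT libraries that are the baseline of this comparison. The split by class is therefore not independent of how the classes were set. SST cKO replicate 7 had 194 CPM of Slc17a7, the vesicular glutamate transporter of excitatory cells, against 67.7 to 121 CPM in the SST WT libraries and 67.8 to 124 in the other SST cKO libraries. Its 5 excitatory markers summed to 1051 CPM, against 767 to 894 in SST WT, and its 5 oligodendrocyte markers to 918 CPM, against 256 to 566. SST cKO replicate 5 was above the WT range too, at 955 and 803 CPM, while replicates 3 and 4 had 738 and 828 CPM of the excitatory markers and 374 and 221 of the oligodendrocyte markers. The part of such RNA in these differences was not tested. Without SST cKO replicate 7, 3 members were higher at an unadjusted p of at most 0.05 in place of 11, against 6 without SST WT replicate 1 and 7 without SST WT replicate 3 or SST cKO replicate 5, while without SST cKO replicate 4 there were 16. Without SST cKO replicate 7 the log2 differences were 0.33 for Kcnj9, 0.40 for Kcnj4 and 0.18 for Kcnk2. With the replicate number as a block 3 were higher.

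In Grik the lowest p was that of Kcna4, with 42.4, 43.9, 31.7 and 27.7 CPM in WT and 19.8, 22.1, 27.7 and 25.1 in cKO. Every cKO library was below every WT library, though the nearest pair round to the same value, and the log2 difference was -0.62 (SE 0.19, unadjusted p 0.00425, edgeR adjusted p 0.889). Kcnk9 followed with -0.36 (SE 0.15, unadjusted p 0.021, edgeR adjusted p 0.957) and Kcna1 with -0.17 (SE 0.078, unadjusted p 0.0396, edgeR adjusted p 0.992), and the groups of both overlapped. The 5 members with a low unadjusted p became 2 without Grik cKO replicate 2, 3 without Grik WT replicate 4 and 8 without Grik WT replicate 6. In CamK the lowest p belonged to Kcnh4, a scarce elk subunit, with 0.858, 0.687, 0.700 and 1.15 CPM in WT and 2.14, 1.002 and 2.34 in cKO and a difference of 1.11 (SE 0.42, unadjusted p 0.0155, edgeR adjusted p 0.664). Kcnh5 gave 0.31 (SE 0.12, unadjusted p 0.0195, edgeR adjusted p 0.665) and Kcnq5 0.30 (SE 0.13, unadjusted p 0.0302, edgeR adjusted p 0.674), and WT and cKO overlapped for all 3 genes. Without CamK cKO replicate 6 no member had an unadjusted p of at most 0.05 in CamK, and 4 had one without CamK WT replicate 5 or CamK cKO replicate 4. Without CamK WT replicate 2, and likewise without replicate 3, the number stayed at 7 but all were higher in cKO, in place of 4 higher and 3 lower. Oligodendrocyte markers summed to 138 to 206 CPM in CamK WT and 204 to 256 in CamK cKO, and astrocyte markers to 9.01 to 20.99 and 19.9 to 31.5. Their part in these differences was not tested. Among all genes higher in SST than in both other WT groups, 7.58% were higher in CamK cKO at this p, and among those lower in SST 1.8%. Of the members in these classes 0 of 22 and 2 of 31 were. The CamK WT libraries helped to set these classes and are also the baseline here. These shares are therefore not independent of how the classes were set.

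Whether the genotype difference itself differed between populations was tested directly, and again no member passed. The share of all genes that passed was 0.00531% for Grik minus CamK, 0% for SST minus CamK and 0.0106% for SST minus Grik. At an unadjusted p of at most 0.05 there were 6 members for Grik minus CamK (1 higher and 5 lower), against 6.5% of all genes (3.88% and 2.62%). There were 6 for SST minus CamK (4 higher and 2 lower), against 7.85% (4.64% and 3.21%), and 4 for SST minus Grik, all higher, against 3.86% (2.43% higher). The lowest p in each belonged to Kcna1 for Grik minus CamK, with -0.32 (SE 0.11, unadjusted p 0.00915, edgeR adjusted p 0.754), to Kcnip2 for SST minus CamK, with 0.65 (SE 0.21, unadjusted p 0.00513, edgeR adjusted p 0.597), and to Kcnj4 for SST minus Grik, with 0.64 (SE 0.22, unadjusted p 0.00767, edgeR adjusted p 1). Kcnip2 had 204, 210.3, 185 and 218 CPM in CamK WT and 177, 156 and 155 in CamK cKO, against 50.1, 44.8, 47.9 and 62.1 in SST WT and 46.8, 51.2, 67.9 and 89.1 in SST cKO. The highest SST cKO values of Kcnip2 and Kcnj4 were those of replicate 7, the library with 194 CPM of Slc17a7 and 1051 CPM of excitatory markers, and both genes were higher in the excitatory WT groups than in SST. Without it the difference was 0.44 (SE 0.16, edgeR adjusted p 0.874) for Kcnip2 and 0.49 (SE 0.20, edgeR adjusted p 1) for Kcnj4, and the part of excitatory RNA in it was not tested. With the replicate number as a block the difference of Kcnj4 was 0.11. These totals per gene do not count exons, so a change in splicing that leaves the total alone would not appear in them.

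**Figure D5:**
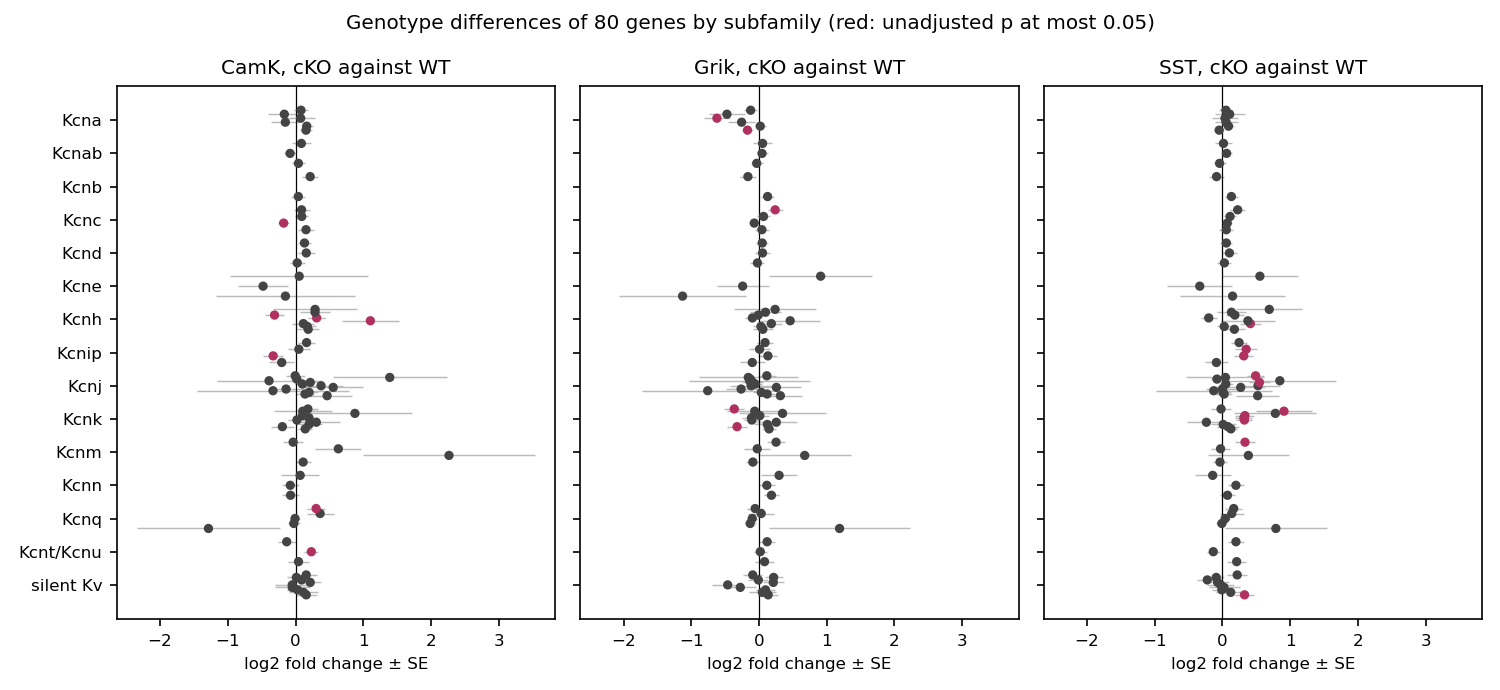
Log2 difference between libraries labelled cKO and WT for the tested members in rows by subfamily, with a panel for each population; points are the edgeR estimates, bars their standard errors, and red marks an unadjusted p of at most 0.05. The red points number 7 in CamK, 5 in Grik and 11 in SST, those of SST all above 0, and none passed after adjustment.

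A list of 25 genes whose products join, anchor or modulate these channels was read from the same fit, and 23 had enough reads. Between Grik and CamK 6 were higher and 4 lower, between SST and CamK 9 and 6, and between SST and Grik 8 and 4, with medians of 0.07, 0.11 and -0.02. Over all genes 21.1% were higher and 20.9% lower in the first comparison, 30.5 and 29.5% in the second and 29.2 and 28.1% in the third, so the counts of the list lay near the background. Dpp10, an accessory subunit of Kcnd channels, had means of 39.9 CPM for CamK WT, 10.4 for Grik WT and 175 for SST WT, while its relative Dpp6 had 284, 278 and 248. Lgi2 and Lgi1, secreted synaptic proteins, stood in opposite orders, with 56.0, 34.6 and 158 CPM for Lgi2 and 138, 218 and 84.0 for Lgi1. Lrrc38, an auxiliary subunit of the BK channel, had 3.60 CPM in SST WT and at most 0.102 on average in the excitatory populations, and Lrrc55, another, was lower in SST (8.73 CPM against 14.7 and 19.5). Cntnap2 and Cntn2, which cluster Kcna channels beside the node of Ranvier, were higher in SST than in CamK by 0.70 and 0.99 on the log2 scale. No gene of the list passed the threshold in a genotype comparison.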

How the data were processed

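The authors deposited 1 table of whole-number read counts per Ensembl gene for the 23 libraries, with 4 summary rows in the form STAR writes, per the file headers. Trimmomatic, STAR and GRCm38 are named in the submitters' processing notes. The versions, annotation release, strand setting and filters are not given in the sources used here. The summary rows held 12.4 to 18.4% of reads and were left out. Symbols, positions and exon lengths came from GENCODE M21 on GRCm38, which matched 45143 of 45706 gene IDs. Of the 92 members 28 have exons that overlap those of another gene, 26 of them on the opposite strand only, and such counts are uncertain.

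The counts were filtered (filterByExpr), scaled by TMM and fitted with edgeR 4.0.16 (robust glmQLFit, glmQLFTest, R 4.3.3) on 6 groups, with 18823 genes and Benjamini-Hochberg adjustment over all of them. CPM are TMM-scaled, and CPM per kb divide by merged exon length. The method was tested on simulated counts. Relative log expression scaling, no filter, a filter of 1 CPM in 3 libraries, DESeq2 1.42.0, limma-voom (limma 3.58.1), fits of only the compared groups, the replicate number as a block and leaving out each replicate were the alternatives. Replicates of a group differed by more than sampling noise. Members, gene lists and rules were chosen with earlier results of these data known.

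The 52 genes chosen by rule were the 2 members of highest mean CPM in each subfamily, the 5 most positive and 5 most negative called log2 differences per WT comparison among those with a mean of at least 1 CPM and no overlap, and the lowest p-values per genotype comparison (3) or difference (1). Others were named beside their subfamily after their values were seen. Results of a few members are not reported here.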

Additional observations from a re-analysis of the deposited data

Results flagged for a closer look

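Among 225 pairs of a named gene and a group of 4 libraries, 9 held a library whose gap to the nearest other, divided by the range of the group, exceeded Dixon's critical value for 4 values, where chance would give 11.25. In Grik cKO, replicate 2 was apart for Kcnh3 (46.7 CPM against 40.3 to 40.4, ratio 0.981), and replicate 1 for Kcnip1 (3.04 against 3.93 to 4.03, ratio 0.895) and Kcnk4 (20.7 against 17.9 to 18.3, ratio 0.8293). For Kcna1, replicate 2 stood apart in SST WT (233 against 180.3 to 185, ratio 0.917) and replicate 4 in SST cKO (197 against 185 to 187, ratio 0.846). Kcnf1 in SST WT had 54.6 CPM in replicate 5 against 30.4 to 33.7, a ratio of 0.862. In SST cKO the others were Kcna5 in replicate 3 (2.34 against 1.64 to 1.71, ratio 0.894) and Kcnj2 in replicate 7 (2.62 against 0.726 to 1.05, ratio 0.83). CamK WT replicate 4 had 44.9 CPM of Kcna4 against 38.3 to 39.3, a ratio of 0.851. The causes were not tested.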

How the results depend on the processing

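Each count of called members stayed within 1.5 times its value under every alternative. Over the alternatives other than leaving out a replicate, the WT counts ranged from 56 to 59 (Grik against CamK), 64 to 72 (SST against CamK) and 62 to 66 (SST against Grik), and the cKO counts from 50 to 60, 65 to 73 and 61 to 67. Leaving out each replicate gave 54 to 58, 67 to 72 and 64 to 68 in WT, 50 to 53, 66 to 72 and 64 to 68 in cKO, and 0 in every genotype test. Over 35 pairs of same-numbered libraries of different groups the correlation of deviations from the group means was -0.0999 to 0.138, with 4 over 0.1. Differently numbered pairs were not set beside them, so these values cannot settle whether the replicate numbers pair the libraries. With the number as a block the counts were 59, 70 and 65 in WT, 50, 66 and 64 in cKO, and 0 for genotype. None of the 269 calls of named genes changed direction, and 17 were lost under some alternative, among them, in WT, those of Kcng1 (Grik against CamK), Kcne2 and Kcnt1 (SST against CamK) and Kcnh4 and Kcnj10 (SST against Grik), and, in cKO, calls of Kcna2, Kcnb2, Kcne2, Kcnh4, Kcnj10, Kcnma1, Kcnn2 and Kcnq3. In SST the 11 members with a low unadjusted genotype p numbered 3 to 16 when a replicate was left out. The counts at that p for the differences between populations ran from 4 to 7 (Grik minus CamK), 5 to 10 (SST minus CamK) and 3 to 7 (SST minus Grik). Genes under about 1 CPM rest on few reads.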

Other observations

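Neighbouring channel genes were set side by side after their values were seen. On chromosome 6, Kcna1 and Kcna6 lie 61.9 kb apart in GENCODE M21, and Kcna5 lies 105.0 kb from Kcna1. Kcna1 was highest in Grik, Kcna6 in SST, and Kcna5 was lowest in Grik. On chromosome 1, Kcnj9 and Kcnj10 lie 11.9 kb apart, with Kcnj9 highest in CamK and Kcnj10 highest in Grik. Kcna3 and Kcna2, 63.1 kb apart on chromosome 3, were both highest in SST.

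The ATP-sensitive channels pair a Kcnj pore with a sulfonylurea receptor from the neighbouring gene. Kcnj11 and Abcc8, 3.8 kb apart on chromosome 7, differed in order: Kcnj11 was lowest in Grik, while Abcc8 was lower in SST (7.58 CPM) than in CamK (13.0) and Grik (13.7). Kcnj8 and Abcc9, 16.2 kb apart on chromosome 6 and known from the cells around small vessels, both passed as higher in SST than in CamK at low levels. Kcnj8 was not read in 3 of 4 CamK WT libraries and had 0.443 to 0.677 CPM in SST WT, and Abcc9 ranged from 0.0109 to 0.210 CPM in CamK WT and from 0.291 to 2.09 CPM in SST WT. The 5 vascular markers summed to 11.01 to 13.8 CPM in CamK WT and 14.5 to 50.1 in SST WT, and their part in this was not tested.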
